A study of Mus musculus with 12 samples.

Results

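Genes of the axoneme, the microtubule core of motile cilia and of the sperm tail, were followed in blood stem and progenitor cells of the mouse fetal liver at E13.5. The 9 genes, Dnah8, Iqcg, Ak7, Dnah1, Dnah2, Dnah5, Dnah11, Spag6 and Spag16, were picked by symbol from the 24054 genes of the deposited tables, and all 9 have a row. Their choice drew on how they differ between mutants and controls, so that difference is given below as a description. The same holds for how it varies between the cell types. Among the 9 genes, a test is given for the cell types in controls, a comparison that the choice did not use.

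Mutants were of the genotype Setdb1 p/p;vav-cre. Setdb1 encodes a methyltransferase that places a silencing methyl mark on lysine 9 of histone H3, and the vav-cre transgene drives Cre recombinase in blood cells. What the p allele is, the labels leave undefined. LT-HSC control 1 and MPP controls 1 and 2 carried Setdb1 +/p without the transgene (Setdb1 +/p;+/+), while LT-HSC controls 2 and 3 and MPP control 3 carried Setdb1 +/p;vav-cre, so every control also had a p allele. LT-HSC are long-term haematopoietic stem cells (LSK, CD150+, CD48-) and MPP are multipotent progenitors (LSK, CD150-, CD48+), with 3 libraries for each cell type and genotype and 12 in all. The labels give 500 to 1000 sorted cells for LT-HSC and 20000 for MPP. They do not say whether libraries of a group came from separate fetuses, so p-values measure the spread between these libraries, which may be technical.

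In an axoneme, dynein heavy chains sit in outer and inner arms on microtubule doublets and pull neighbouring doublets past each other. The nexin-dynein regulatory complex links the doublets, and the central apparatus with its projections, together with the radial spokes, controls when the arms work. Such structures are built in multiciliated epithelia and in developing sperm, and blood cells do not carry motile cilia. Of the 9 genes, Dnah8, Dnah5 and Dnah11 encode outer arm heavy chains, Dnah8 being the one used in sperm. Dnah1 and Dnah2 encode inner arm heavy chains, Iqcg a subunit of the nexin-dynein regulatory complex, Spag6 and Spag16 proteins of the central apparatus, and Ak7 an adenylate kinase of cilia and sperm tails.

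Totals per library lay between 10119416 and 14113198 expected counts. Levels are given in CPM, counts per 1e+06 counts of the library after TMM scaling. Setdb1 itself stood at 73.4 to 108 CPM in LT-HSC controls, 66.3 to 80.1 in LT-HSC mutants, and in MPP at 87.9 to 141 in the controls and 86.6 to 117 in the mutants, and the genotype groups overlapped in both cell types. A count over the whole gene does not check the genotype labels, since the labels do not say which part of the gene the p allele affects.

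Kit, the receptor by which these cells are gated, was at 819 to 1087 CPM in the 12 libraries. Ly6a, which encodes Sca-1 of the same gate, was at 33.2 to 43.9 CPM in LT-HSC controls and 24.1 to 94.3 in LT-HSC mutants, the highest in mutant 2. In MPP, Ly6a was lower in the mutants without overlap, at 13.7 to 16.9 against 26.3 to 35.3 CPM. Slamf1, which encodes CD150, was at 34.6 to 41.5 CPM in LT-HSC and 1.09 to 2.41 in MPP, and Cd48 was at 10.6 to 30.6 CPM in LT-HSC and 149 to 261 in MPP. These 4 genes had reads in every library, and Slamf1 and Cd48 separated the cell types. Flt3, a receptor of early progenitors, was lower in the mutants without overlap in both cell types, at 52.3 to 77.5 against 133 to 149 CPM in LT-HSC and 203 to 273 against 405 to 490.5 in MPP. Of the 8 markers of multiciliated cells, Gmnc and Cdc20b were at 0 in every library, and Foxj1, the master regulator of motile cilia, did not exceed 0.290 CPM. The summed level of the 8 genes was 38.0 to 43.9 CPM in LT-HSC controls, 32.0 to 47.2 in LT-HSC mutants, and for MPP 35.0 to 37.8 in controls and 37.6 to 43.0 in mutants. Most of it came from Rfx2 and Rfx3, transcription factors that cells other than ciliated ones also use.

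Of the 9 germ cell markers, Prm2, Tnp1 and Acrv1, genes of late sperm development, were at 0 in every library. Dazl, Sycp3 and Mael, genes of germ cell development and meiosis, were low but moved with the genotype. Sycp3 was at 0 to 0.147 CPM in LT-HSC controls and 1.07 to 1.64 in LT-HSC mutants, and at 0 to 0.233 against 0.55 to 1.99 in MPP. For Dazl the MPP controls lay at 0.333 to 0.413 CPM and the MPP mutants at 1.86 to 2.53. The LT-HSC controls reached 0.464 CPM, and LT-HSC mutants 1 to 3 were at 0.493, 2.03 and 2.19. LT-HSC control 1 had 7 counts and LT-HSC mutant 1 had 6, so these 2 libraries were apart only through the scaling. Mael was at 0 in all 6 controls and had reads in 5 of the 6 mutants, up to 1.26 CPM. Prm1 and Dppa3 had 2 counts each over all libraries. The sum of the 9 markers, most of it from Ddx4, was 35.0 to 40.0 CPM in LT-HSC controls, 37.7 to 51.8 in LT-HSC mutants, and for MPP 25.8 to 38.5 in controls and 36.1 to 63.8 in mutants. Markers of 2 other liver cell types also differed. All 10 hepatoblast markers were detected in each group, and they summed to 419 to 1570 CPM in LT-HSC controls against 52.5 to 396 in LT-HSC mutants, and to 161 to 428 against 57.6 to 103 in MPP. All 10 macrophage markers were also detected, with sums of 764 to 1100 against 49.0 to 875 CPM in LT-HSC and 705 to 1000 against 91.0 to 197 in MPP. Both sums were lower in the mutants without overlap, except the macrophage sum in LT-HSC, where mutant 2 stood apart. In that library the sum was 875 CPM against 49.0 and 136 in the other mutants, and Cd68, C1qa, C1qb, C1qc, Mrc1 and Csf1r, 6 of the 10 markers, were above every LT-HSC control. Without LT-HSC mutant 2, the log2 fold changes in LT-HSC were 2.79 for Dnah8, 4.06 for Iqcg, 6.63 for Ak7, -0.23 for Dnah1, -0.18 for Spag16 and -5.95 for Spag6. The part of these germ cell, hepatoblast and macrophage markers in the results below was otherwise not tested. In such bulk libraries, fewer cells with an RNA and less of that RNA per cell cannot be told apart.

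The sequences before the starts of Dnah8, Iqcg and Ak7 are shown because these are the 3 genes that were far higher in the mutants. They come from RefSeq's promoter table for GRCm38.p6, in which all 9 genes have an entry, and cover the 250 bases before the start that the table uses. That start is not always the outermost base of the gene in the annotation. It lies 959 bases inside Iqcg and 2124 bases inside Ak7, so these windows are within the annotated span of their genes, and 1 base inside Dnah8. They run 5′ to 3′ along the gene, and capitals mark matches to the 5 motifs searched on both strands, none of which overlap each other here. The motifs were GTTGCC and GTTACC (short motifs from the X-box that RFX factors bind), CACGTG (E-box), GCGGGAA (E2F) and TATAAA. The Dnah8 stretch, chr17:30626686-30626801 on the plus strand, stops early, because it was cut 20 bases into first exons of a neighbour.
Dnah8: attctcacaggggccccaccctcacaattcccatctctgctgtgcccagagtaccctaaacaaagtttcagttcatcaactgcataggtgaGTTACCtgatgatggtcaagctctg
Iqcg, chr16:33056187-33056436 on the minus strand: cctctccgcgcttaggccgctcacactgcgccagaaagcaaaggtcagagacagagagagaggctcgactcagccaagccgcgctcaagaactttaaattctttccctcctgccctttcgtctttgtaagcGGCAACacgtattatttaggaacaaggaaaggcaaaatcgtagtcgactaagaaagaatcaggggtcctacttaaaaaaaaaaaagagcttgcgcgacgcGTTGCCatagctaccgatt
Ak7, chr12:105705732-105705981 on the plus strand: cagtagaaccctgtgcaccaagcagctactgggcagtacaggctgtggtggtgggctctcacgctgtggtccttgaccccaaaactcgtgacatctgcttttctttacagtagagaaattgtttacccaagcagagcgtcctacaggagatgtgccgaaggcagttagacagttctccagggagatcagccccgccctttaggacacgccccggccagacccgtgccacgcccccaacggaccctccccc

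The Dnah8 window holds 1 GTTACC that begins 159 bases before the start. The Iqcg window holds GTTGCC 19 bases before the start and, on the other strand, at 119 bases, where it reads GGCAAC. The Ak7 window holds none of the 5 motifs. Over all 32851 windows of this length in the table, 10.43% hold GTTGCC, 6.06% GTTACC and 15.7% at least 1 of these X-box motifs. Among the other 6 genes, the Spag16 window has 3 X-box motifs and the remaining windows have no match. Guanine and cytosine make up 59.2% of the Dnah8 window, 48.8% of the Iqcg window and 58.4% of the Ak7 window, against a median of 52.4% over all windows. The 3 windows have 13, 17 and 10 CpG, against a median of 6.

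Dnah8 lies on chromosome 17 (GRCm38.p6, 30626935 to 30875762, plus strand) and has 93 exons in the annotation. It stood in LT-HSC at 20.4, 20.8 and 21.3 CPM in controls 1 to 3 and at 145, 122 and 141 CPM in mutants 1 to 3. In MPP it was at 19.7, 24.8 and 24.1 CPM in controls 1 to 3 and at 183, 203 and 192 CPM in mutants 1 to 3. Every mutant library was far above every control library in both cell types, and no control, with or without vav-cre, exceeded 24.8 CPM. The mean rose from 20.8 ± 0.454 to 136 ± 12.4 CPM in LT-HSC (SD, n = 3 each), a log2 fold change of 2.75 with a standard error of 0.115, or 6.72-fold. In MPP it rose from 22.9 ± 2.73 to 193 ± 9.96 CPM (SD, n = 3 each), a log2 fold change of 3.06 with a standard error of 0.108, or 8.34-fold. Dnah8 was the only one of the 9 genes with more than 15 CPM in any control.

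Iqcg lies on chromosome 16 (33014270 to 33057145, minus strand, 11 exons). Its level was 2.85, 2.06 and 3.68 CPM in LT-HSC controls 1 to 3 and 53.3, 58.9 and 42.1 CPM in LT-HSC mutants 1 to 3. In MPP it was 3.65, 4.82 and 5.54 CPM in controls 1 to 3 and 45.4, 42.0 and 43.8 CPM in mutants 1 to 3. Again no mutant library came near a control, and the 6 mutants of both cell types ranged from 42.0 to 58.9 CPM. The log2 fold change was 4.20 with a standard error of 0.261 in LT-HSC (18.4-fold) and 3.21 with a standard error of 0.162 in MPP (9.27-fold).

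Ak7 lies on chromosome 12 (105703858 to 105782447, plus strand, 18 exons). It was nearly absent from controls, at 0, 0.0736 and 0.376 CPM in LT-HSC controls 1 to 3 and 0.0777, 0.0832 and 0.165 CPM in MPP controls 1 to 3. In the mutants it was at 5.26, 4.06 and 24.6 CPM in LT-HSC and at 11.6, 27.2 and 23.9 CPM in MPP. The mutants lay above the controls in both cell types but spread widely among themselves, and LT-HSC mutant 3 held most of the LT-HSC signal. Over the 3 libraries of a group, the expected counts went from 6 to 442 in LT-HSC and from 4 to 712 in MPP. Scaled to the libraries, the ratio was 85.3 in LT-HSC (95% exact interval 38.9 to 234) and 195 in MPP (75.6 to 716). These intervals cover counting error only, not the spread between libraries. The fitted log2 fold changes were 6.24 with a standard error of 1.11 in LT-HSC and 7.45 with a standard error of 0.492 in MPP. Leaving out 1 library moved them to between 4.95 (without LT-HSC mutant 3) and 8.02 (without LT-HSC control 3) in LT-HSC and between 7.22 and 7.84 in MPP.

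**Figure D1:**
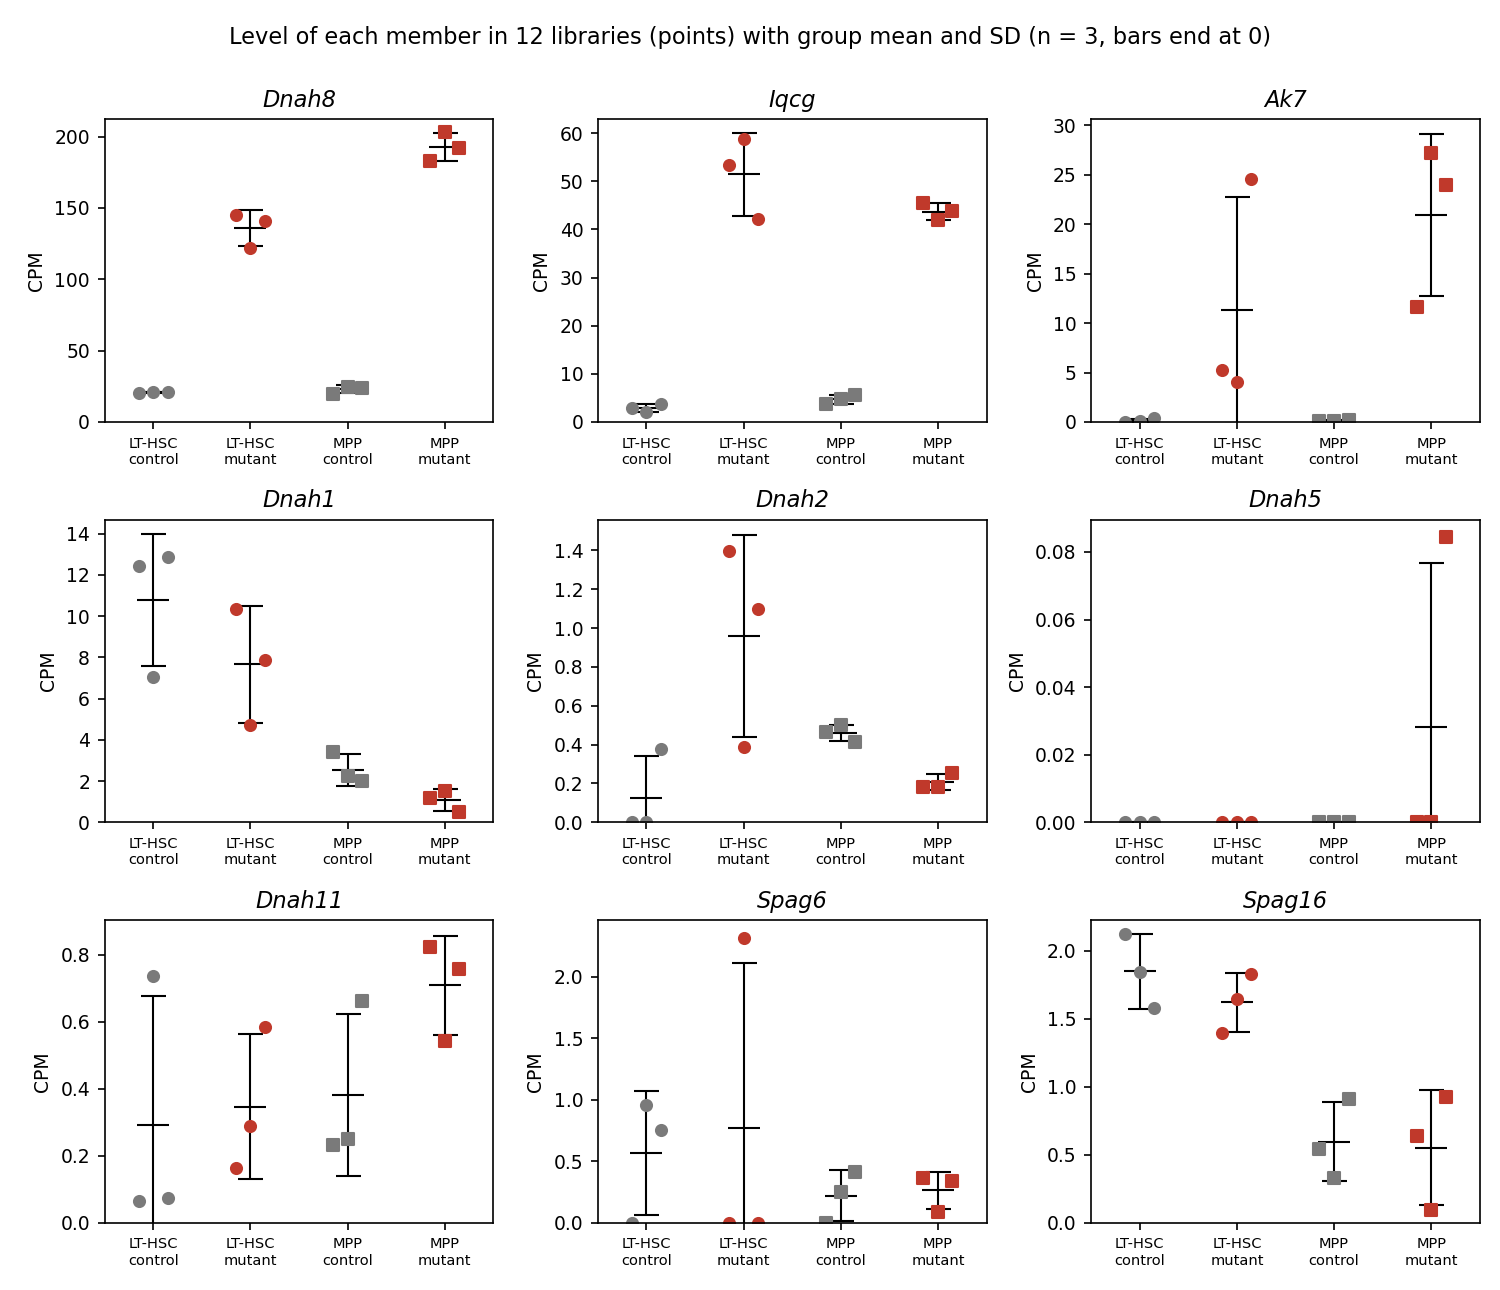
Level in CPM (vertical axes, linear, each from 0) of the 9 genes in the 12 libraries, by cell type and genotype (horizontal axes). Points are libraries, long ticks group means and bars the SD of 3 libraries, drawn no lower than 0. Dnah8, Iqcg and Ak7 are higher in every mutant library than in any control of the same cell type, while the panels of Dnah5 and Dnah11 stay under 1 CPM throughout.

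The 6 other genes did not share this pattern. Dnah1, on chromosome 14 (31260375 to 31325891, minus strand, 78 exons), stood in LT-HSC at 12.4, 7.07 and 12.9 CPM in controls 1 to 3 and at 10.4, 4.73 and 7.89 CPM in mutants 1 to 3, so the groups overlapped. The MPP levels of Dnah1 were 3.42, 2.25 and 1.98 CPM in controls 1 to 3 and 1.19, 1.54 and 0.506 CPM in mutants 1 to 3. The MPP mutants lay below all MPP controls, the opposite of Dnah8, Iqcg and Ak7. The log2 fold change was -0.45 with a standard error of 0.353 in LT-HSC and -1.27 with a standard error of 0.393 in MPP.

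Dnah2, on chromosome 11 (69420807 to 69549108, minus strand, 86 exons), stood in LT-HSC at 0, 0 and 0.376 CPM in controls and at 1.40, 0.386 and 1.10 CPM in mutants. Its MPP levels were 0.466, 0.499 and 0.413 CPM in controls and 0.183, 0.181 and 0.253 CPM in mutants. In CPM the groups of Dnah2 did not overlap in either cell type, and the directions were opposite, higher in LT-HSC mutants and lower in MPP mutants. The lack of overlap in LT-HSC rested on the scaling to the library, since LT-HSC control 3 had 5 expected counts and LT-HSC mutant 2 had 4. Dnah2 had few reads, 5 against 36 expected counts over the LT-HSC groups (ratio 8.34, 95% exact interval 3.26 to 27.2) and 17 against 7 over the MPP groups (ratio 0.450, 0.158 to 1.14). Dnah2 was under the filter on low counts in every comparison and was not fitted.

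Dnah5, on chromosome 15 (28154854 to 28472045, plus strand, 79 exons), was at 0 in 11 libraries and had 1 count in MPP mutant 3. A count of 0 over the 3 LT-HSC controls allows a level of up to 0.0715 CPM, and over the 3 MPP controls up to 0.0811 CPM (3 counts over the group). Dnah11, on the same chromosome as Ak7 (117877982 to 118199043, minus strand, 82 exons), ranged from 0.0664 to 0.736 CPM in LT-HSC controls and from 0.164 to 0.585 in LT-HSC mutants. In MPP it ranged from 0.233 to 0.662 CPM in controls and from 0.542 to 0.824 in mutants, again with overlap. Both were under the filter in every comparison.

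Spag16, on chromosome 1 (69826872 to 70725132, plus strand, 18 exons), stood in LT-HSC at 2.12, 1.84 and 1.58 CPM in controls and at 1.40, 1.64 and 1.83 CPM in mutants. In MPP it was at 0.544, 0.333 and 0.910 CPM in controls and at 0.641, 0.0904 and 0.927 CPM in mutants. Genotypes overlapped in both cell types, and the LT-HSC log2 fold change was -0.14 with a standard error of 0.391. The row named Spag6 holds the transcript that RefSeq now calls Spag6l (chromosome 16, 16753016 to 16829363, minus strand, 11 exons). It stood in LT-HSC at 0, 0.957 and 0.752 CPM in controls and at 0, 2.32 and 0 CPM in mutants, and no MPP library exceeded 0.413 CPM. The only LT-HSC mutant with reads was mutant 2, and the log2 fold change of 0.44 had a standard error of 1.62, with a value of -5.95 without that library. The row BC061194, which RefSeq now calls Spag6, had 3 counts over all libraries.

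**Figure D2:**
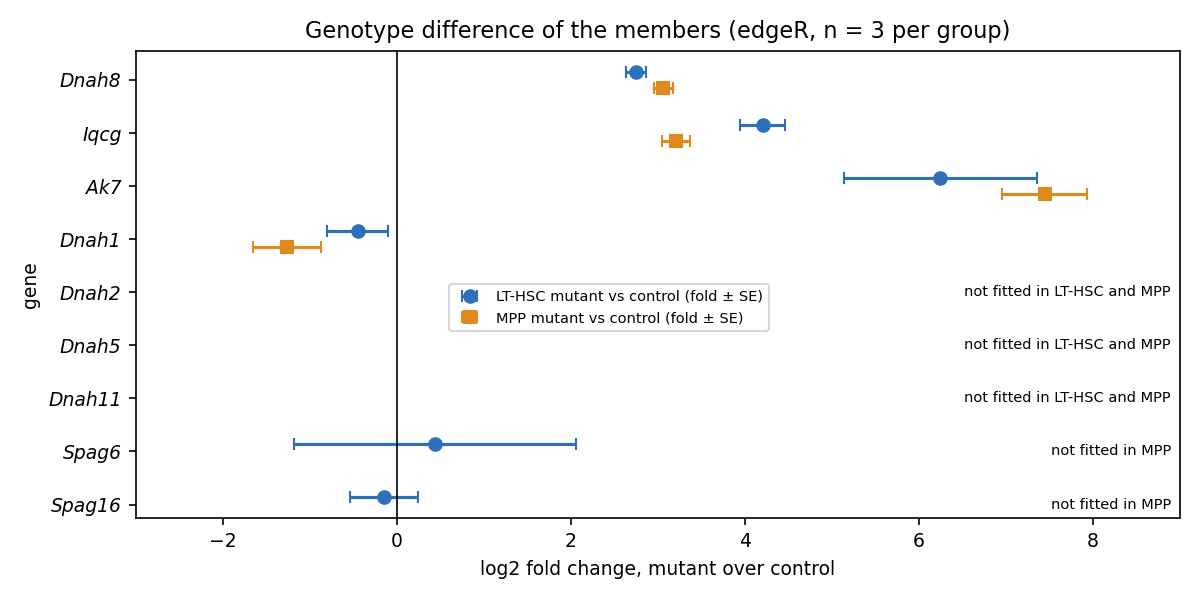
Log2 fold change of mutant over control (horizontal axis) for the 9 genes (vertical axis), with LT-HSC as circles, MPP as squares and bars of 1 standard error (3 libraries per group). Dnah8, Iqcg and Ak7 lie at 2.75 and above in both cell types, Dnah1 lies below 0, and genes under the filter on low counts have no point.

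By edgeR's quasi-likelihood test with Benjamini-Hochberg adjustment over all genes and a threshold of 0.05, 2 of the 6 genes fitted in LT-HSC were called higher, Dnah8 and Iqcg, and 0.257% of all 12847 genes fitted were called higher there. In MPP, 3 of the 4 genes fitted were called higher, Dnah8, Iqcg and Ak7, and 1 lower, Dnah1, where 16.5% of all 12392 genes fitted were called higher and 18.5% lower. The choice of the genes used these contrasts, and nothing is read from the counts. The LT-HSC fit called Ak7 only with another tool, without the filter, over all 12 libraries together or with the replicate number as a block. The Dnah1 call in MPP was lost in 7 of 12 alternatives, among them each fit without MPP control 1 or 2 or without MPP mutant 1 or 3. Its log2 fold change ranged from -1.60 to -0.91. The log2 fold change of Dnah8 stayed between 2.70 and 2.79 in LT-HSC and between 2.95 and 3.13 in MPP over the same alternatives, and that of Iqcg between 4.02 and 4.42 and between 2.93 and 3.36.

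TPM, which divides by transcript length, puts the genes on one scale. In LT-HSC controls the order of mean TPM was Dnah8 at 2.59 ± 0.0379, Dnah1 at 1.52 ± 0.471, Iqcg at 1.33 ± 0.372 and Spag16 at 0.970 ± 0.161 (SD, n = 3 each). Dnah1 and Iqcg, and Iqcg and Spag16, differed by less than their spread, and the other 5 genes were at or under 0.437 TPM. In MPP controls Dnah8 at 2.55 ± 0.339 and Iqcg at 1.94 ± 0.422 led, followed by Dnah1 at 0.320 ± 0.0889 and Spag16 at 0.280 ± 0.138 (SD, n = 3 each), of which the last pair differed by less than their spread. In LT-HSC mutants Iqcg came first at 23.1 ± 3.45, then Dnah8 at 16.4 ± 2.05 and Ak7 at 6.75 ± 6.92 TPM (SD, n = 3 each). In MPP mutants Dnah8 was first at 19.7 ± 0.420, then Iqcg at 16.7 ± 1.26 and Ak7 at 10.4 ± 3.82 TPM (SD, n = 3 each). Per length, Iqcg therefore stood beside Dnah8 in the mutants, although its CPM was lower.

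**Figure D3:**
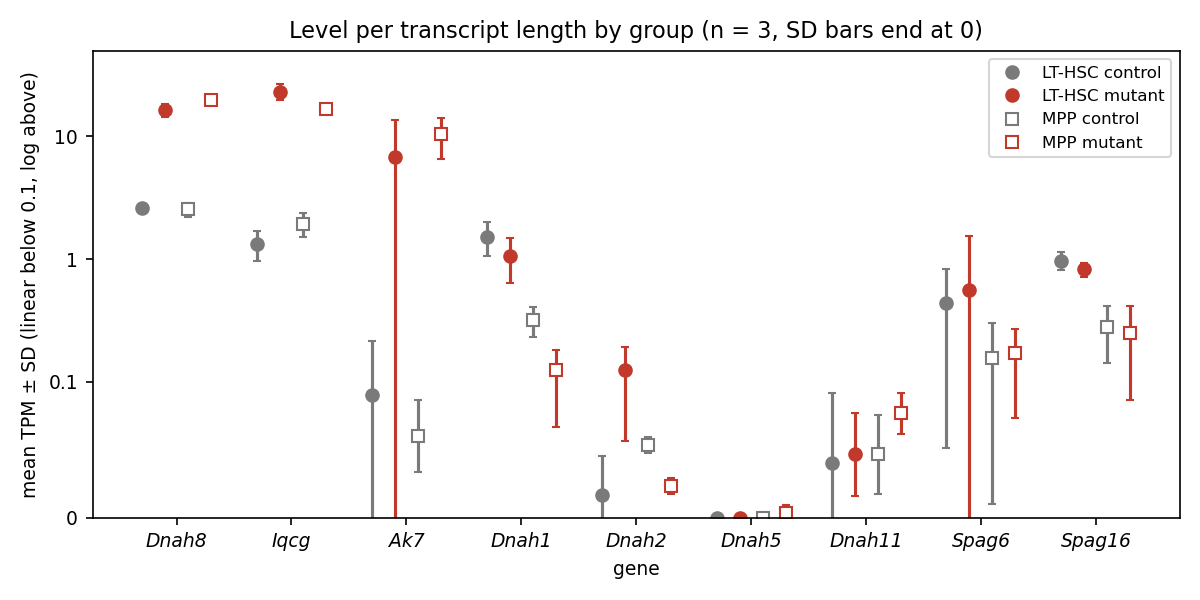
Mean TPM with SD (vertical axis, linear below 0.1 and logarithmic above, n = 3 libraries, bars drawn no lower than 0) of the 9 genes (horizontal axis) in the 4 groups. In the mutants Dnah8, Iqcg and Ak7 lie between 6.75 and 23.1 TPM, and the other 6 genes lie at or under 1.52 TPM in every group.

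The choice of the genes did not use the difference between cell types in controls, which was tested over the 6 control libraries. Earlier results of these data were known when the genes were chosen. Of all 12834 genes fitted there, 20.5% were called higher in LT-HSC than in MPP and 18.0% lower. Among the 9 genes, Dnah8, Iqcg and Dnah1 passed the filter on low counts within each control group, and 1 of these was called, Dnah1. Dnah1, the inner arm heavy chain, was 4.23-fold higher in LT-HSC (log2 fold change 2.08, standard error 0.313, edgeR adjusted p = 0.000694), and all 3 LT-HSC controls were above all 3 MPP controls. The call held in all 11 alternatives, with log2 fold changes of 1.93 to 2.35.

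Spag16, which encodes a central apparatus protein, was the fourth gene fitted. It passed the filter through the LT-HSC controls, since only 1 of the 3 MPP controls reached the minimum of 0.793 CPM, so its difference is a description and no support for one. Its fitted log2 fold change was 1.63 with a standard error of 0.451, with no overlap between the groups. An adjusted p under the threshold was lost for Spag16 with DESeq2 and without LT-HSC control 1, MPP control 1 or MPP control 2. Dnah8 did not pass, with a log2 difference of -0.13 and a standard error of 0.142 (edgeR adjusted p = 0.512). Iqcg did not pass either, with a log2 difference of -0.69 and a standard error of 0.308 (edgeR adjusted p = 0.10). It passed without LT-HSC control 3 (0.0490) and in the fit of all 12 libraries (0.0347). For Ak7, Dnah2, Dnah5, Dnah11 and Spag6, the controls had too few counts for a fit.

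How the mutant difference varied with the cell type was fitted as an interaction over the 12 libraries. The choice of the genes drew on this too, so the values are a description and no support for or against a difference. Ak7 entered this fit through the mutants, where it is high. None of the 5 genes fitted passed, where 0.377% of all 13249 genes did. At an unadjusted p under 0.05 there were 2 of the 5, beside 1637 of all 13249 genes, and DESeq2 called 0. The difference of the log2 fold changes, LT-HSC minus MPP, was 0.93 for Iqcg with a standard error of 0.296 (edgeR adjusted p = 0.211). Without LT-HSC mutant 3 it was 1.05 and passed (adjusted p = 0.0498). It was -0.37 for Dnah8 with a standard error of 0.151 (adjusted p = 0.332), -1.27 for Ak7 with a standard error of 1.77 (0.859) and 0.75 for Dnah1 with a standard error of 0.579 (0.677). The Ak7 difference was 0.51 without LT-HSC control 3. These standard errors leave room for a difference in either direction for Ak7 and Dnah1.

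Some of the reads behind these values were shared with genes on the opposite strand, since the library kit does not keep strand and the deposited counts divide shared reads. In all 12 libraries the fractional expected count of Dnah8 summed to a whole number with that of 1700097N02Rik (within 0.015), that of Iqcg with Lrch3 and that of Dnah11 with Cdca7l, and with no other row. Over all annotated transcripts, Dnah8 shares 207 exon bases with 1700097N02Rik, Iqcg 2965 with Lrch3 and Dnah11 642 with Cdca7l. Between the GENCODE transcripts matched to those counted here, Dnah8 and 1700097N02Rik share 0 exon bases, and the other overlaps are unchanged. The match is not exact for Iqcg, with 5618 exon bases in GENCODE against a counted length of 4027. In RefSeq the spans of Iqcg and Lrch3 overlap by 1760 bases only, so the transcripts counted may share fewer than 2965. How Dnah8 and 1700097N02Rik came to share reads was not tested. The other 6 genes had whole counts. The sum of Dnah8 and 1700097N02Rik went from 33.3 ± 2.64 to 264 ± 23.3 CPM in LT-HSC and from 35.0 ± 7.55 to 371 ± 13.0 CPM in MPP (SD, n = 3 each). The sum of Iqcg and Lrch3, a gene of leucine-rich repeats, went from 73.1 ± 8.73 to 126 ± 17.5 CPM in LT-HSC and from 64.5 ± 6.82 to 107 ± 3.52 CPM in MPP. Lrch3 alone was at a mean of 70.3 CPM in LT-HSC controls and 74.1 in LT-HSC mutants, and at 59.8 and 63.1 CPM in MPP, so the rise of the sum lay with Iqcg as the counts were divided.

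The gene nearest before the start of Dnah8 was also higher in the mutants of both cell types, and the next one passed in MPP only. The long noncoding RNA 1700097N02Rik starts 30 bases before Dnah8 and runs the other way. It stood in LT-HSC at 14.4, 14.1 and 8.95 CPM in controls and at 124, 117 and 144 CPM in mutants. In MPP it was at 6.76, 12.8 and 16.9 CPM in controls and at 174, 179 and 183 CPM in mutants. Mutants and controls were apart in both cell types, as for Dnah8, with log2 fold changes of 3.40 (standard error 0.210) and 3.87 (standard error 0.227). Since the 2 genes share reads, these values are no independent measure. The annotation also places first exons of 2 transcripts of Glo1, the glyoxalase gene, in the window before Dnah8, and these end at the same base as the first exon of the noncoding RNA. Glo1 rose in MPP by a log2 fold change of 0.95 with a standard error of 0.116 (edgeR adjusted p = 0.000125), and its LT-HSC value was 0.38 with a standard error of 0.155 (adjusted p = 0.494). On the far side, Glp1r was at 0 in all libraries.

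Ak7 lies between Gskip, 800 bases before it, and Papola, 2230 bases after it. Papola, which encodes a poly(A) polymerase, rose from a mean of 357 to 714 CPM in MPP (log2 fold change 0.98, standard error 0.0985, edgeR adjusted p = 3.29e-05), and was at 368 and 498 CPM in LT-HSC (0.48, standard error 0.121, adjusted p = 0.240). Atg2b, an autophagy gene on the other side of Gskip, rose from 48.6 to 105 CPM in MPP (log2 fold change 1.10, standard error 0.0971, edgeR adjusted p = 1.7e-05). In LT-HSC it did not pass (0.55, standard error 0.352, edgeR adjusted p = 0.676). Gskip itself, nearest to the start of Ak7, had log2 fold changes of 0.16 in LT-HSC and 0.23 in MPP and did not pass in either. Next to Iqcg, the ribosomal protein gene Rpl35a, which faces it head to head, rose slightly in MPP (log2 fold change 0.28, standard error 0.0840, edgeR adjusted p = 0.0255), and Lmln and Lrch3 did not pass. Within 200 kb of the 3 genes, a distance chosen after the values were seen, 14 of 20 genes were fitted. Of these, 1 was called higher and none lower in LT-HSC, the noncoding RNA beside Dnah8, where 0.257% and 0.163% of all genes were. In MPP, 5 of the 14 were called higher and 2 lower, where 16.5% and 18.5% of all genes were.

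**Figure D4:**
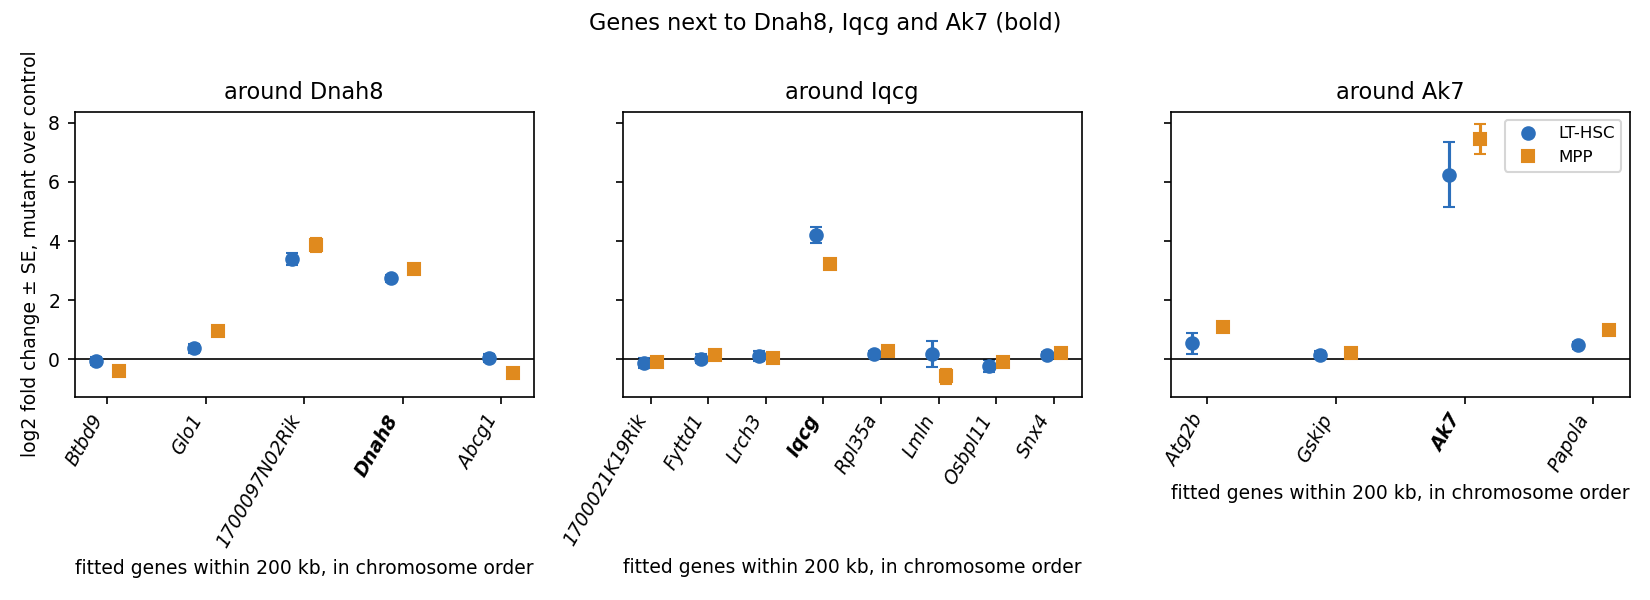
Log2 fold change of mutant over control (vertical axis, bars of 1 standard error, 3 libraries per group) for the fitted genes within 200 kb of Dnah8, Iqcg and Ak7, in chromosome order along the horizontal axes, with LT-HSC as circles and MPP as squares. The noncoding RNA beside Dnah8 rises with it, while the neighbours of Iqcg and Ak7 lie between -0.56 and 1.10.

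Beside the other genes, Ikzf2, a transcription factor gene before Spag16, fell in MPP mutants by 0.80 on the log2 scale (edgeR adjusted p = 0.000902), and it was higher in LT-HSC than MPP controls by 1.23 (adjusted p = 4.69e-05), the same direction as Spag16. Cdca7l, which overlaps Dnah11, fell in MPP mutants by 0.27 on the log2 scale (edgeR adjusted p = 0.0425). Sp4, a transcription factor gene next to Dnah11, and Rpl31-ps12, which overlaps Spag6, rose in MPP by 0.36 and 0.43 (adjusted p = 0.0316 and 0.0307), and none of the neighbours of these 6 genes passed in LT-HSC. The other nearest genes passed in neither genotype comparison. Of these, Bap1 and Capn7 beside Dnah1, Kdm6b beside Dnah2, Trio beside Dnah5, Rapgef5 beside Dnah11 and Fyttd1 beside Iqcg were fitted. Capn7, a calpain protease gene, was at a mean of 56.4 CPM in MPP controls and 67.9 in MPP mutants without overlap (edgeR adjusted p = 0.0523). Rapgef5 was at 2.87 ± 1.65 CPM in LT-HSC controls and 1.21 ± 0.484 in LT-HSC mutants (SD, n = 3 each), also without overlap (edgeR adjusted p = 0.57). Efnb3 beside Dnah2 and Igll1 beside Spag6 were under the filter. Igll1, a surrogate light chain gene of early B cells, ranged from 0.499 to 1.87 CPM over the MPP controls and reached at most 0.337 in an MPP mutant. Mir3964 beside Dnah5, 4933404G15Rik beside Spag6 and Vwc2l beside Spag16 were at 0 in all libraries.

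Few other genes of the axoneme could be fitted, and 1 of them was called higher in a genotype comparison. Of 100 other genes of the axoneme and the sperm tail on a list by role, 90 are in the tables, 11 of these were at 0 in all 12 libraries and 28 had between 1 and 15 counts in all. In LT-HSC, 30 were fitted and none was called in either direction, where 0.420% of all genes were. At an unadjusted p under 0.05 there were 3 of the 30, beside 1221 of all 12847 genes, and DESeq2 called 0. The median log2 fold change of the 30 was -0.105, beside 0.0293 over all genes fitted. In MPP, 32 were fitted, 1 was called higher and 6 lower, or 21.9% against 35.0% of all genes, with a median log2 fold change of -0.151 beside -0.0127 over all genes. The MPP count was 2 without MPP mutant 2, 3 without MPP mutant 3, 3 in the fit of all 12 libraries and 0 with the control that carries vav-cre alone.

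Of the 79 genes of this list with reads, 3 were higher in the mutants without overlap in both cell types, or 3.8% against 3.42% of all genes with reads, and 2 were lower, Ak8 and Wdr78, where 4.15% of all genes with reads were. The 3 higher genes, named after their values were seen, were Iqcd, Wdr63 and Tekt5, and the last 2 were under the filter. Wdr63, an inner arm gene, was at 0 in all 6 controls and had reads in all 6 mutants, with 12 counts over the LT-HSC mutants and 17 over the MPP mutants. Tekt5, a tektin gene of the sperm tail, was at 0.0736 to 0.301 CPM in LT-HSC controls and 0.493 to 0.585 in LT-HSC mutants, and at 0.0827 to 0.233 against 0.275 to 0.904 in MPP.

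By role, none of the fitted dynein assembly factors (6), sperm tail accessory genes (5) or inner arm genes (1) was called in MPP. The 1 gene called higher was Iqcd, which encodes another subunit of the nexin-dynein regulatory complex, at 1.32, 1.41 and 0.992 CPM in MPP controls and 2.11, 3.98 and 3.12 CPM in MPP mutants (log2 fold change 1.28, standard error 0.318, edgeR adjusted p = 0.00934). In LT-HSC its mutants were also above its controls, at 1.26 to 2.34 against 0.516 to 0.664 CPM, but it did not pass (log2 fold change 1.67, standard error 0.479, adjusted p = 0.325). Iqcd passed the LT-HSC filter through the mutants, where it is high, so its LT-HSC difference is a description and no support for one. Of the same complex, Ccdc135 fell from 11.2 ± 2.18 to 5.13 ± 2.77 CPM in MPP (SD, n = 3 each; edgeR adjusted p = 0.0149) and Gas8 fell by 0.46 on the log2 scale.

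Of the central apparatus, Ak8, an adenylate kinase like Ak7, fell from 1.59 ± 0.305 to 0.531 ± 0.0710 CPM in MPP (SD, n = 3 each), a log2 fold change of -1.58 with a standard error of 0.362. Ak8 passed the filter through the MPP controls, where it is high, as no MPP mutant exceeded 0.590 CPM. Its difference is therefore a description and no support for one. Spef2, which encodes a central apparatus protein, fell from 2.26 ± 0.610 to 0.894 ± 0.266 CPM (edgeR adjusted p = 0.0120). Dnal4, a dynein light chain gene, fell from 41.7 ± 1.45 to 30.5 ± 2.84 CPM (edgeR adjusted p = 0.00884), and the radial spoke gene Rsph9 fell by 1.03 on the log2 scale. Ak7, which passed the filter through the MPP mutants, and Ak8 moved in opposite directions in MPP mutants, which is likewise a description.

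Between the control cell types, 6 of 32 fitted genes of this list were higher in LT-HSC and 4 lower, or 31.2% against 38.5% of all genes. Without MPP control 2 the count was 6 in all. The radial spoke genes Rsph3a and Rsph3b were higher in LT-HSC by 0.89 and 0.65 on the log2 scale (edgeR adjusted p = 0.00066 and 0.00345). They are near-identical copies, so how their reads were divided is uncertain. Dnaaf3, a dynein assembly factor, was higher by 1.15 (adjusted p = 0.00619) and Ccdc114, of the outer arm docking complex, by 1.01 (adjusted p = 0.0147). Ccdc135 was at 8.85 to 13.1 CPM in MPP controls and 0 to 0.442 CPM in LT-HSC controls (log2 difference -6.19, standard error 0.647, edgeR adjusted p = 8.06e-05). Spef2 (-2.16), Spag1, a dynein assembly factor (-1.15), and Dnah17, an outer arm heavy chain (-1.20), were also lower in LT-HSC. Ccdc135 and Spef2 passed the filter through the MPP controls, where they are high, as no LT-HSC control reached its minimum. In the interaction, none of 33 fitted genes was called by edgeR and DESeq2 called 0. At an unadjusted p under 0.05 there were 4 of the 33, beside 1637 of all 13249 genes.

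**Figure D5:**
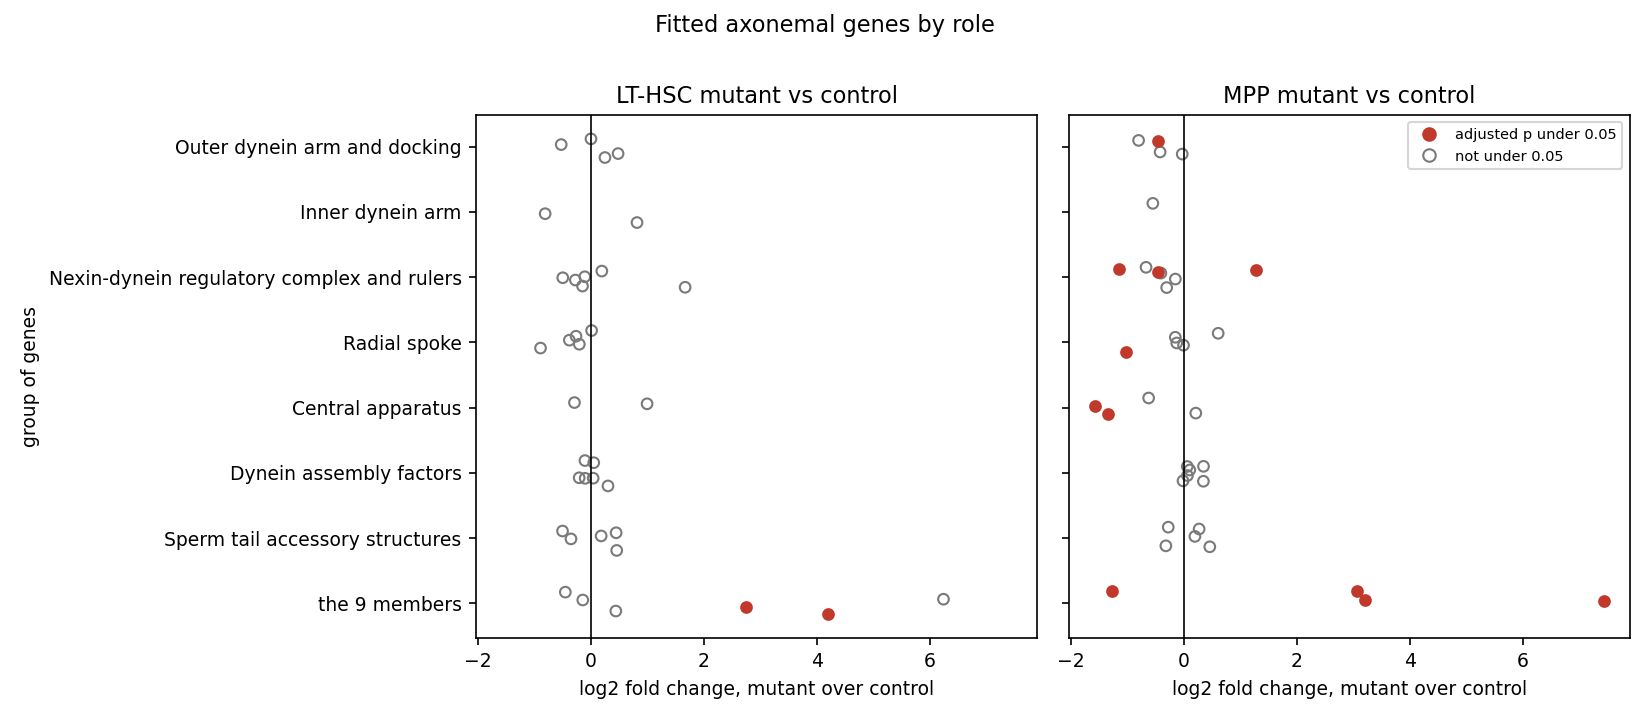
Log2 fold change of mutant over control (horizontal axes) for the fitted genes of each role and for the fitted genes among the 9 (vertical axis), in LT-HSC (left) and MPP (right). Filled points have an edgeR adjusted p under 0.05. In the 7 other groups no point exceeds 1.67, while Dnah8, Iqcg and Ak7 lie at 2.75 and above.

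Across the 12 libraries, the genes whose log2 CPM was most like that of Dnah8 among 13248 genes were Stag3 (Pearson r 0.997), M1ap (0.993), Car1 (0.993), Tex19.1 (0.992) and Arl14epl (0.992). For Iqcg they were Stag3 (0.975), Dnah8 (0.974), Rps4l (0.971), 4930550L24Rik (0.970) and M1ap (0.965). These values describe libraries that share the same 2 genotypes, so any gene with a large genotype difference scores high, and they have no p. Stag3, a cohesin subunit of meiosis, went from 14.8 ± 2.08 to 155 ± 20.6 CPM in LT-HSC and from 18.0 ± 3.81 to 202 ± 15.9 CPM in MPP (SD, n = 3 each). M1ap, a gene of male meiosis, went from 4.75 ± 0.379 to 56.6 ± 15.2 CPM and from 4.86 ± 0.664 to 79.0 ± 9.47 CPM. Like Dnah8, the genes Stag3, M1ap, Car1 and Rps4l were clearly detected in both control groups. Car1 was at means of 7.90 CPM in LT-HSC controls and 9.85 in MPP controls, and Rps4l at 103 and 105 CPM. Tex19.1 and Arl14epl were at or near 0 in the controls of both cell types, as Ak7 was, and 4930550L24Rik was at means of 0.24 and 0.60 CPM.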

How the data were processed

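Each library has 1 deposited table of genes with expected counts as estimated by RSEM, per the file headers, and with TPM, the authors' level per transcript length. Per the submitters' processing notes, STAR and RSEM were used on mm10; no version or setting is given in the sources used here. Per the labels' protocols, libraries were made from sorted cells with a SMARTer ultra low input kit, a kind that does not mark strand. Of the 24054 genes, 7.13% to 7.76% per library had a fractional expected count, since RSEM divides shared reads. This is a share of genes, not of reads.

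Titles and genotype labels gave the groups and replicate numbers. Expected counts were rounded and tested with edgeR 4.0.16 in R 4.3.3 (quasi-likelihood test, TMM scaling, filterByExpr by group with a minimum count of 10 and a minimum total of 15, Benjamini-Hochberg adjustment over all genes fitted, threshold 0.05). CPM uses the TMM-scaled total. The genotype was fitted in the 6 libraries of each cell type, the cell type in the 6 controls and the interaction in all 12. The fits were tested on simulated data. Alternatives were upper-quartile scaling, DESeq2 1.42.0, no filter, the replicate number as a block, each library left out, only controls with vav-cre and a fit of all 12 libraries. Replicates were compared, and no pair agreed within sampling noise.

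Coordinates, transcripts and promoter windows are RefSeq's for GRCm38.p6, to which 23949 of 24054 genes were matched, and exon overlaps come from GENCODE vM21. A group at 0 was given a floor of 3 counts over its libraries, and intervals (95%) and floors cover counting error only.

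The 9 genes, the lists (other axonemal genes by role, and markers of blood progenitors, multiciliated cells, germ cells, hepatoblasts and macrophages) and the tests were chosen with earlier results of these data known. The text names all 9 genes, Setdb1, their nearest neighbours, the 4 other axonemal genes with the smallest p per comparison and direction among those called, and the 5 genes most like the 2 most abundant of the 9. Gas8, Rsph9, Wdr63, Tekt5, Wdr78, Glo1, Atg2b, BC061194 and the single cell type markers were added after their values were seen. The 10 blood progenitor markers were detected in every group, with sums of 2600 to 2800 CPM in LT-HSC controls, 2020 to 2490 in LT-HSC mutants, and for MPP 3150 to 3260 in controls and 2330 to 2680 in mutants.

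Each group has libraries numbered 1 to 3, and the meaning of the number is not labelled. As a check of pairing, deviations from the group mean were correlated across genes between controls and mutants of the same number. In LT-HSC r was 0.108, 0.147 and 0.175, all above 0.1, the value set for taking the numbers as pairs. In MPP it was -0.0245, -0.212 and -0.177, and between the controls of the 2 cell types 0.0598, -0.263 and 0.0683, so these were not taken as pairs. The deposited tables are named with another set of numbers, which the labels do not explain and which was not used. All main fits were made without pairs, including that of the genotype in LT-HSC. The main LT-HSC results therefore leave out a pairing that the set value would accept. Pairs in LT-HSC entered only as an alternative, with the replicate number as a block. Ak7 was called in LT-HSC with that block and not in the main fit (edgeR adjusted p = 0.0923). Whether libraries of the 2 cell types share a fetus was not tested.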

Additional observations from a re-analysis of the deposited data

Results flagged for a closer look

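Dnah2 stood out because its mutants lay above all controls in LT-HSC and below all controls in MPP, in CPM. In LT-HSC the nearest pair was mutant 2 at 0.386 CPM (4 counts) and control 3 at 0.376 CPM (5 counts), apart only through the scaling. The mean was 0.125 CPM in LT-HSC controls and 0.960 in LT-HSC mutants, and 0.460 in MPP controls and 0.206 in MPP mutants. The gene was under the filter on low counts, so the difference was not tested in the main fit. With no filter, the interaction had a log2 value of 4.01 and did not pass (edgeR adjusted p = 0.272). No other of the 9 genes showed opposite directions without overlap.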

How the results depend on the processing

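Of 247 values for the 19 fits of single genes under the alternatives, 218 kept their direction and their side of the threshold, 12 lost their call, 7 gained one and 10 changed sign, all of the last in fits that had no call. Dnah8 and Iqcg were called in LT-HSC and in MPP under every alternative. With the replicate number as a block in LT-HSC, Ak7 was called (log2 fold change 6.29, adjusted p = 0.00508, against 0.0923 without the block), and the LT-HSC count was 48 genes against 54. The block changed no other call of the 9 genes. Ak7 was also called in LT-HSC with DESeq2 (adjusted p = 4.99e-08), without the filter (0.0351) and in the fit of all 12 libraries (0.00584), and in MPP it lost its call with the Cre-carrying control alone (0.109).

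Counts of called genes moved in LT-HSC (54) to 261 in DESeq2, 250 in the fit of all 12 libraries, 14 with Cre-carrying controls alone and 13 to 102 with 1 library left out (the highest without LT-HSC mutant 2). In MPP (4337) they were 125 with the Cre-carrying control, 2792 in the fit of all 12 and 2774 to 4756 with 1 library left out; among the 9 genes 2 were called with the Cre-carrying control, and of the other axonemal genes 0, 3 in the fit of all 12 and 2 to 7 with 1 library left out. Between control cell types, 1 of the 9 genes was called in DESeq2, 3 in the fit of all 12 and 1 to 3 with 1 library left out, and the other axonemal genes 6 to 12. The interaction (50 genes) gave 339 in DESeq2, 87 without the filter, 0 with Cre-carrying controls and 1 (without MPP mutant 2) to 885 (without LT-HSC mutant 3) with 1 library left out, with 0 to 1 of the 9 genes. Changes of sign were those of Spag6 in LT-HSC (-0.43 with the block, -0.16 without LT-HSC control 1 and with Cre-carrying controls, with 1 library left out -5.95 to 1.06, the lowest without LT-HSC mutant 2), of the interaction of Ak7 (0.51 without LT-HSC control 3, otherwise down to -2.55) and of the interaction of Spag16 (0.01 without LT-HSC control 1 or MPP mutant 1, 0.18 without MPP control 2, 0.50 without MPP mutant 3, 0.72 with Cre-carrying controls, -0.59 without MPP mutant 2). The cause was not tested, beyond the smaller number of libraries in the fits that leave some out. Depth limited Dnah2, Dnah5, Dnah11 and Spag6, whose few counts allow no firm statement.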

Other observations

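Rfx2 and Rfx3, the RFX family genes among the multiciliated cell markers, differed in how they moved with the genotype. In LT-HSC, Rfx2 was at 12.9, 13.2 and 9.55 CPM in controls and 16.0, 9.08 and 22.7 CPM in mutants, with overlap. In MPP it was at 8.63, 8.07 and 8.77 CPM in controls and 14.9, 20.8 and 22.5 CPM in mutants, without overlap. Rfx3 in LT-HSC was at 31.0, 30.0 and 28.2 CPM in controls and 30.7, 22.6 and 23.2 CPM in mutants, and in MPP at 29.1, 26.9 and 26.9 CPM in controls and 22.5, 21.8 and 18.5 CPM in mutants. The MPP mutants were thus above the controls for Rfx2 and below them for Rfx3. These genes were singled out after their values were seen, and their differences were not tested here.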
